A study of Mus musculus with 20 samples.

Results

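Oligodendrocyte precursors are the cells that divide and mature into the myelin-forming oligodendrocytes of the brain, and they persist as a dispersed population in the adult striatum. The 8 genes described here, Pdgfra, Cspg4, Olig1, Olig2, Tnr, Cacng4, Gpr17 and Sox10, are commonly used to recognise these cells. Each was read from the row of the count table that carries its symbol, and where a symbol had several rows the one with the highest mean count was taken. All 8 genes were found among 26475 loci with a symbol, and all 8 passed the filter on low counts that left 17206 genes for testing.

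Whole striatum was sequenced from 20 male mice of about 6 months of age, in 4 groups of 5. Mice came from a control line or from a line selected for overactivity in the cage, both labelled Collaborative Cross, and received saline or d-amphetamine at 25 mg/kg, with tissue collected 2 h later. Each condition is 1 line, so selection and the genetic background of that line cannot be told apart. Libraries held 31393788 to 53773028 counts, and levels below are CPM, counts scaled to library size with factors from the trimmed mean of M values (TMM). Striatal projection neuron markers such as Drd2 and Penk summed to 4765 to 7878 CPM over 11 genes, while glutamatergic markers of cortex and of thalamus or septum were also present at levels that differed between libraries. In bulk tissue, fewer cells of a type and less RNA per cell cannot be told apart.

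A precursor receives its main growth signal through the receptor encoded by Pdgfra, which binds platelet-derived growth factor A and keeps the cell dividing. Its identity is held by the transcription factors Olig1, Olig2 and Sox10. As it commits to differentiation it passes through a stage marked by the receptor Gpr17, loses Pdgfra and the NG2 proteoglycan encoded by Cspg4, and then switches on myelin genes, while Olig1, Olig2 and Sox10 remain on in mature oligodendrocytes. The other members are less restricted: Pdgfra is also made by fibroblasts of the meninges and vessels, Cspg4 by pericytes, Tnr (tenascin-R, an extracellular matrix glycoprotein) by some neurons, and Cacng4 (an auxiliary subunit of AMPA glutamate receptors) by striatal neurons.

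Olig1 and Olig2 lie beside each other on chromosome 16, on the same strand, at 91269772 to 91271933 and at 91225457 to 91228677 (GENCODE M21, GRCm38), and the count table gives both the same locus span, 91125258 to 91271939. They encode related basic helix-loop-helix proteins. The stretch of coding sequence in which they are most alike is shown because each gene has its own row and is reported separately below. Capitals mark the bases that differ. The Olig1 stretch is chr16:91270148-91270238 on the plus strand, bases 272 to 362 of a coding sequence of 780, and the Olig2 stretch is chr16:91226713-91226803 on the plus strand, bases 314 to 404 of 969.
Olig1: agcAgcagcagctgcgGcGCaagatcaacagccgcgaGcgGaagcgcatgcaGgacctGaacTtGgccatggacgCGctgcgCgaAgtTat
Olig2: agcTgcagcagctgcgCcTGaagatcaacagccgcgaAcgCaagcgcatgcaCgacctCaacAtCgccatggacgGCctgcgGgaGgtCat
Of these 91 bases, 76 were identical (83.5%) and 15 differed. The longest run of identical bases shared by the whole transcripts was 17. How reads were divided between similar sequences is not given in the sources used here.

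Levels between genes were compared per kilobase of the longest annotated coding transcript. Olig1 was highest at 42.5 CPM per kb over the 20 libraries, followed by Cacng4 at 36.5, Sox10 at 15.8, Tnr at 13.8, Olig2 at 11.3, Gpr17 at 10.1, Pdgfra at 9.82 and Cspg4 at 2.52 CPM per kb. Ranges of neighbours in this order overlapped, except for Cacng4 over Sox10 and Pdgfra over Cspg4, which held in all 20 libraries. Tnr also has a second row in the table with the same span and a mean level of 22.3 CPM, against 167.9 CPM for the row used.

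**Figure D1:**
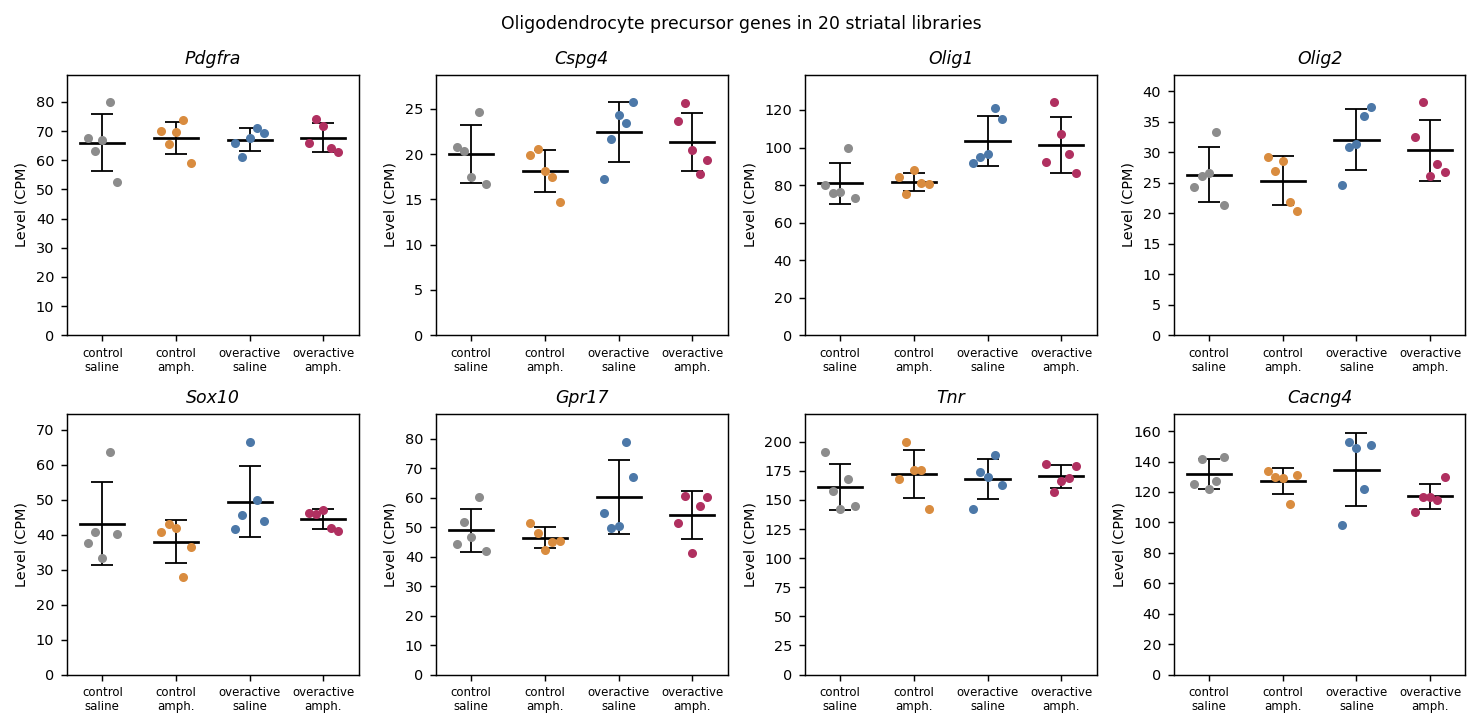
Level of each of the 8 genes in CPM (vertical axes, from 0) in the 20 libraries, by line and injection (horizontal axes). Points are libraries, bars are the mean and whiskers the SD of 5 libraries. Olig1 averaged 81.0 and 81.8 CPM in the control line groups and 103.7 and 101.1 CPM in the overactive line groups, whereas the group means of Pdgfra lay between 66.0 and 67.8 CPM.

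Between the lines, Olig1 was the one gene of the 8 that passed the test, and it was higher in the overactive line. In the control line its level was 79.9, 75.6, 76.3, 100.4 and 73.0 CPM after saline and 84.1, 75.0, 87.9, 81.2 and 80.6 CPM after amphetamine. In the overactive line it was 91.5, 94.8, 96.3, 121 and 115 CPM after saline and 92.3, 124, 107, 96.6 and 86.2 CPM after amphetamine. All 10 overactive libraries lay above the control median of 80.2 CPM and 4 of the 10 lay above the highest control library, which was 1 saline mouse at 100.4 CPM that stood apart from its group. Over both treatments the mean was 81.4 ± 8.07 CPM in the control line and 102.4 ± 13.3 CPM in the overactive line (SD, n = 10 each). That is a 1.26-fold difference (95% interval 1.13 to 1.40; log2 0.33, SE 0.07, edgeR quasi-likelihood adjusted p = 0.011). With 1 of 8 members called higher, the background is 638 of 17206 genes, or 3.71%, and with 0 of 8 called lower it is 570 genes, or 3.31%. The groups of Olig1 still overlapped, as did those of the other 7 members, against 0.267% of all genes whose lines did not overlap in either direction.

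Olig1 did not pass in either treatment alone. After saline it was 0.36 on the log2 scale (SE 0.10, edgeR adjusted p = 0.0853) and after amphetamine 0.31 (SE 0.10, edgeR adjusted p = 0.220), and the test of the difference between them gave -0.05 (SE 0.14, 95% interval -0.36 to 0.26). In saline 0 of 8 members passed in edgeR, against 0.639% of genes called higher; 2 members, Olig1 and Gpr17, had an unadjusted p under 0.05 (17.3% of all genes), DESeq2 called 1 and limma-voom 0. Under amphetamine 0 of 8 passed in edgeR, against 0.221% of genes called higher; 1 member, Olig1, had an unadjusted p under 0.05 (12.9% of all genes), and DESeq2 and limma-voom each called 0.

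Markers of neighbouring brain regions were also read in this comparison. All 10 markers of thalamic and septal neurons were positive in the overactive line (median log2 0.79, 0 of 10 called), and 10 of 12 cortical excitatory markers were negative (median -0.59, 0 of 12 called); at an unadjusted p under 0.05 were 7 and 9, against 25.6% of all genes. The cortical median was -1.03 after saline and -0.21 after amphetamine, and summed cortical markers were 688.4 to 1381 CPM after saline and 1083 to 1443 CPM after amphetamine in the control line, and 447.4 to 695.2 and 571.5 to 1578 CPM in the overactive line. Summed thalamic and septal markers were 156.9 to 271.6 CPM after saline and 177.7 to 232.4 CPM after amphetamine in the control line, and 214.6 to 520.1 and 174 to 468.3 CPM in the overactive line. No gene of either list was at 0 in all libraries. Without the 4 libraries highest in thalamic and septal markers (overactive saline mice 1 and 4 and overactive amphetamine mice 2 and 3), the Olig1 difference was 0.25 (edgeR adjusted p = 0.0656), and with cortical and thalamic marker levels as covariates it was 0.22 (edgeR adjusted p = 0.162). With the myelin marker level as a covariate it was 0.22 (edgeR adjusted p = 0.0891). It passed without each of the 20 libraries in turn, with adjusted p between 0.00292 and 0.0232.

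Olig2, the factor that specifies the lineage, was 26.4 ± 4.44 CPM after saline and 25.4 ± 4.02 CPM after amphetamine in the control line, and 32.1 ± 5.0 and 30.3 ± 5.05 CPM in the overactive line (SD, n = 5 each). Its difference over both treatments was 1.21-fold (95% interval 1.04 to 1.39; log2 0.27, SE 0.10, edgeR adjusted p = 0.0954), with 8 of 10 overactive libraries above the control median. It did not pass the test over all genes. Whether the line difference of Olig1 differs from that of Olig2 was not tested.

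Gpr17, the receptor of the committed stage, was 44.2, 51.7, 46.6, 60.2 and 41.9 CPM in the control saline mice and 51.5, 48.1, 42.2, 44.8 and 45.2 CPM in the control amphetamine mice. In the overactive line it was 54.6, 49.7, 50.4, 78.9 and 66.9 CPM after saline and 51.3, 60.6, 41.1, 57.2 and 60.2 CPM after amphetamine. Of the 10 overactive libraries 9 lay above the control median of 45.9 CPM, yet the lowest library of all, at 41.1 CPM, was also overactive. The difference was 1.20-fold (95% interval 1.05 to 1.37; log2 0.26, SE 0.09, edgeR adjusted p = 0.0869).

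Sox10, which activates myelin genes and is on in the whole lineage, averaged 40.6 ± 9.31 CPM in the control and 47.0 ± 7.44 CPM in the overactive line (SD, n = 10 each; log2 0.21, SE 0.11, edgeR adjusted p = 0.232). Single mice stood out, as 1 control saline library reached 63.7 CPM and 1 overactive saline library 66.6 CPM while the lowest control library was at 27.9 CPM. Cspg4 averaged 19.1 ± 2.79 and 21.9 ± 3.11 CPM (log2 0.20, SE 0.09, edgeR adjusted p = 0.166). Without the control saline mouse that was high in Olig1 and Sox10, 4 of 8 members passed: Olig1, Olig2 (edgeR adjusted p = 0.046), Gpr17 (0.0453) and Sox10 (0.0424). Without 1 overactive amphetamine mouse, replicate 3, both Olig1 and Gpr17 (0.0499) passed. With all 20 libraries 3.71% of all genes were called higher, and the share in each of these smaller fits is not given here. The count over all genes also moved when single libraries were left out, and its range is given under the dependence on processing.

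The remaining 3 members had differences near 0. Pdgfra was 67.7, 63.3, 67.1, 79.8 and 52.4 CPM in the control saline mice and 66.0, 61.0, 67.7, 71.2 and 69.3 CPM in the overactive saline mice, so the overactive values all lay inside the control range. Over both treatments its ratio between lines was 1.01 (95% interval 0.92 to 1.10; edgeR adjusted p = 0.926). Tnr averaged 166.7 ± 20.2 and 169.1 ± 13.3 CPM (log2 0.02), and Cacng4 129.7 ± 9.18 and 126.1 ± 19.2 CPM (log2 -0.04) in the control and overactive lines (SD, n = 10 each). In Cacng4 the spread was widest among overactive saline mice, from 98.4 to 152.8 CPM. Over the 8 genes the median log2 difference was 0.21, against 0.0006 over all genes tested. Of the 8, 7 were positive, against 8639 of 17206 genes. At an unadjusted p under 0.05 were 4 of the 8, against 25.6% of all genes.

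**Figure D2:**
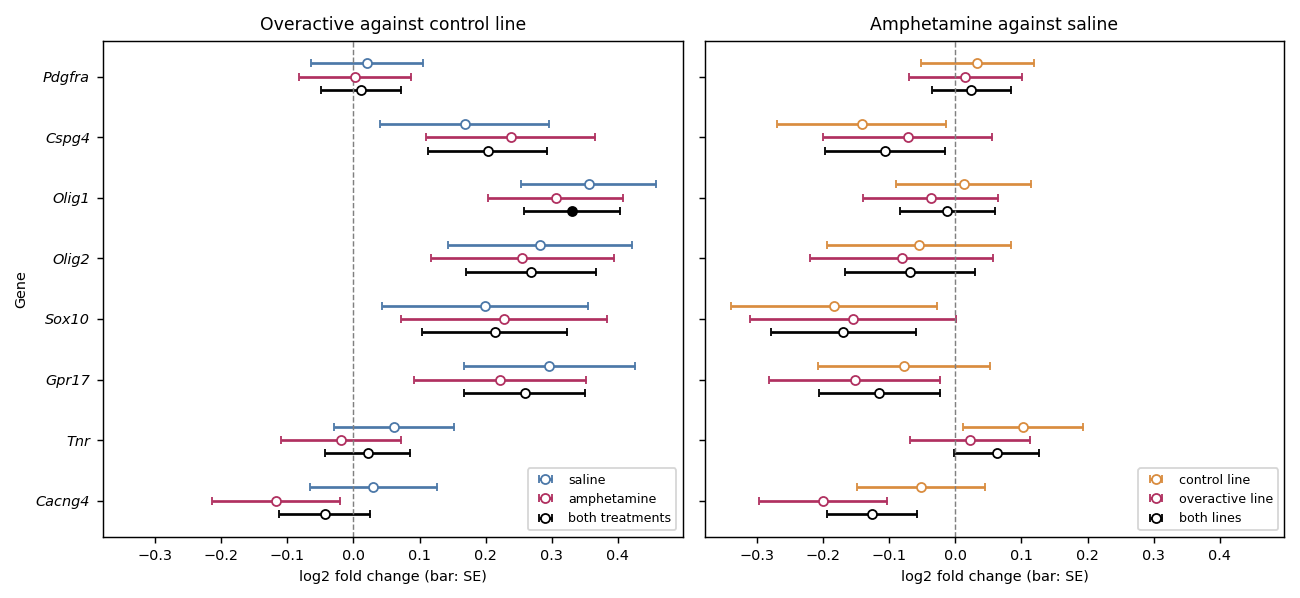
Log2 fold change (horizontal axes, bars are the SE) of each gene (vertical axes) between lines (left) and after amphetamine (right), by treatment or line and over both. The filled point, Olig1 between lines over both treatments at 0.33, is the one value past the test. Amphetamine values ran from -0.20 for Cacng4 to 0.10 for Tnr.

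A level relative to Pdgfra in the same library does not depend on how libraries were scaled to each other. The ratio of Olig1 to Pdgfra was 1.22 ± 0.10 in the control line and 1.52 ± 0.12 in the overactive line (SD, n = 10 each), and 8 of 10 overactive libraries exceeded the highest control ratio of 1.39. For Olig2 the ratio was 0.388 ± 0.041 against 0.463 ± 0.061, with 8 of 10 above the highest control ratio, and for Gpr17 0.717 ± 0.075 against 0.848 ± 0.145, with 6 of 10 above. Cspg4, the other surface marker of precursors, had 6 of 10 overactive ratios above the highest control ratio, Sox10 had 1, and Tnr and Cacng4 had 0. These ratios are given as a description, without a test.

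Later stages of the lineage were compared through lists of other genes. Of 13 tested genes that mark differentiating oligodendrocytes, 11 were positive in the overactive line and 5 passed, all higher, with a median log2 difference of 0.23. Over both treatments 3.71% of all genes were called higher and 3.31% lower, and these shares also apply to the lists below. At an unadjusted p under 0.05 were 10 of the 13, against 25.6% of all genes. Itpr2, a calcium release channel on this list, ranged from 22.04 to 25.4 CPM in the control and from 25.7 to 34.8 CPM in the overactive line. The cell type that its counts came from was not tested. The lines did not overlap in Itpr2, as in 0.139% of all genes in this direction (log2 0.35, SE 0.05, edgeR adjusted p = 0.000275). It also passed in saline (edgeR adjusted p = 0.0174) and under amphetamine (0.0210) alone. Over both treatments it passed in all 30 alternative settings. In saline it passed in 30 of 31, but not with the cortical and thalamic covariates (0.189). Under amphetamine it passed in 26 of 31, and did not with the myelin covariate (0.0935) or without the 4 libraries (0.137). Nkx2-2, a transcription factor of differentiation, was higher by 0.44 (edgeR adjusted p = 0.0274) and Tns3 by 0.23 (0.0200). Zfp488 (log2 0.23) and Bcas1 (log2 0.24) also passed and were named after their values were seen. The count of 5 fell to 1, Itpr2, with myelin covariates, with cortical and thalamic covariates and without the 4 libraries named above. It fell to 2 without control saline mouse 1, overactive saline mouse 4 or overactive amphetamine mouse 3, and to 3 without 8 other single libraries.

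Among 18 other precursor genes 14 were positive (median log2 0.15), and 7 had an unadjusted p under 0.05, against 25.6% of all genes. In this list 1 gene passed: Traf4, an adaptor of receptor signalling, was higher by 0.37 (SE 0.09, edgeR adjusted p = 0.0156). C1ql1, a secreted protein made by precursors, was 7.28 ± 1.47 CPM in the control and 10.1 ± 2.68 CPM in the overactive line without passing (log2 0.47, edgeR adjusted p = 0.0525; named after its value was seen). The count of 1 depended on the method, with 6 passing in DESeq2, 2 in limma-voom, 4 with upper quartile scaling, and 2 to 4 without some single libraries. It was 0 with the myelin covariate, with the cortical and thalamic covariates and without the 4 libraries, where the adjusted p of Traf4 was 0.0952, 0.157 and 0.113. Of 14 tested genes of mature myelin 11 were positive (median 0.19), 5 had an unadjusted p under 0.05 and 2 passed. Apod, a lipid carrier of mature oligodendrocytes, was 81.3 ± 14.4 CPM in the control and 145.1 ± 35.6 CPM in the overactive line (a log2 difference of 0.83, SE 0.13, edgeR adjusted p = 0.00108), and it passed in all 30 alternative settings. Mobp, a structural myelin protein, was 0.32 higher (edgeR adjusted p = 0.0218), but did not pass with the myelin covariate (0.153), with the cortical and thalamic covariates (0.281) or without the 4 libraries (0.0574). Mbp is listed at 0 in every library and was not tested. The myelin list still summed to 2864 to 5068 CPM, and the 0 is not taken as the level of Mbp in striatum. The cause of this 0 was not tested.

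**Figure D3:**
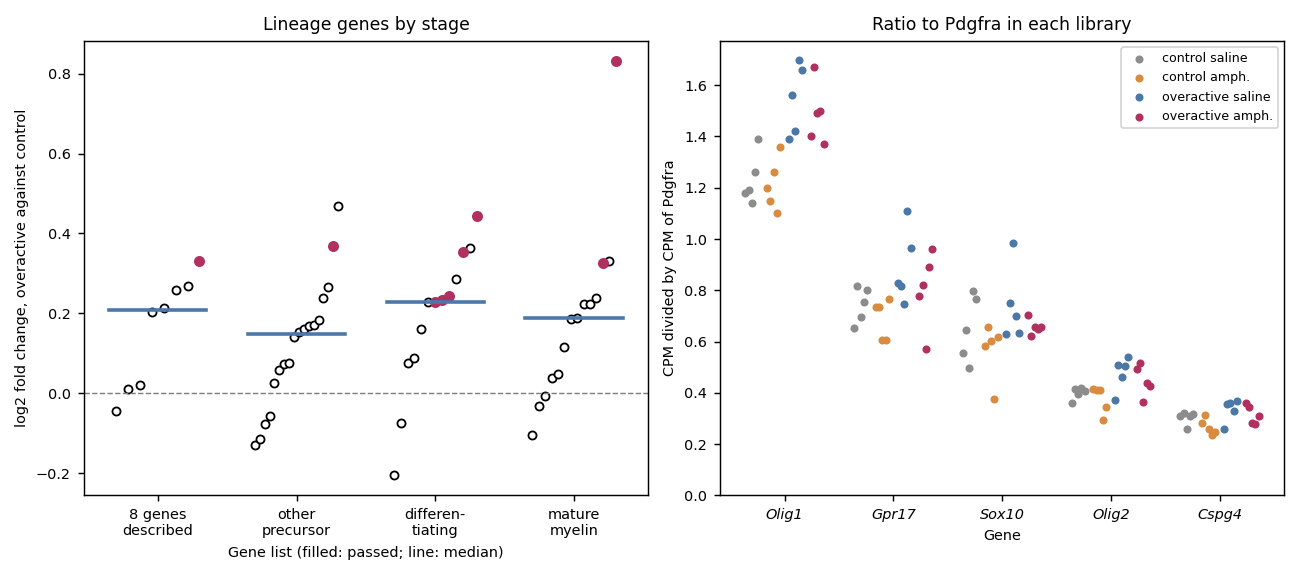
Left, log2 fold change of the overactive against the control line over both treatments (vertical axis) for the 8 genes and 3 other lists by stage (horizontal axis); filled points passed the test and lines are medians. Right, ratio of CPM to that of Pdgfra in each library (vertical axis) for 5 genes, coloured by group. List medians ran from 0.15 to 0.23, and Olig1 ratios were 1.22 ± 0.10 in the control and 1.52 ± 0.12 in the overactive line.

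Of 20 ligands and regulators of the precursor state 9 were positive between the lines, 7 had an unadjusted p under 0.05, against 25.6% of all genes, and 1 passed: Id2, which holds precursors from differentiating, was lower in the overactive line (a log2 difference of -0.26, SE 0.08, edgeR adjusted p = 0.0489), although it passed in only 7 of 30 alternative settings. Pdgfa, the ligand of Pdgfra, differed by 0.05 (edgeR adjusted p = 0.575). Among 12 relatives of Tnr and Cacng4, which form the extracellular matrix nets around neurons or bind AMPA receptors, 2 passed and both were lower. At an unadjusted p under 0.05 were 6 of the 12. Ncan, the matrix proteoglycan neurocan, was 159.5 ± 12.7 CPM in the control and 129.6 ± 16.9 CPM in the overactive line (log2 -0.30, edgeR adjusted p = 0.0152). Hapln1, a link protein of these nets, differed by log2 -0.28 (edgeR adjusted p = 0.0491) and passed in only 11 of 30 alternative settings. Ncan passed in 27 of 30. It did not pass with the myelin covariate (edgeR adjusted p = 0.101), with the cortical and thalamic covariates (0.104) or without the 4 libraries (0.126).

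Cells that share single markers with precursors were examined through their own lists over both treatments. Of 10 mural cell genes, Rgs5 (log2 0.73) and Abcc9 (0.38) were higher and Tagln (-0.37) lower in the overactive line, with 5 positive in all. Of 10 meningeal fibroblast genes 0 passed in edgeR, with 0 at an unadjusted p under 0.05, and 3 were positive. Of 9 tested astrocyte genes 8 were positive and 3 passed as higher: Aldh1l1 (0.32), Fgfr3 (0.26) and Gja1 (0.20). At an unadjusted p under 0.05 were 7 of the 9, against 25.6% of all genes, and 1 further listed gene was at 0 in every library. Of 10 microglial genes 3 passed, all lower: C1qc, Trem2 and the locus that Aif1 shares with Lst1. Of 10 genes of dividing cells, Birc5 was higher (0.53) and Mcm5 lower (-0.60). Of 10 ependymal and choroid plexus genes, Ccdc153 (1.21) and Foxj1 (0.76) were higher. At an unadjusted p under 0.05 were 5 of 10 mural, 5 of 10 microglial, 4 of 10 dividing and 3 of 10 ependymal and choroid plexus genes. Median log2 differences were 0.20 for the astrocyte, 0.27 for the dividing and 0.75 for the ependymal and choroid plexus list. They were 0.055 for the mural, -0.04 for the meningeal fibroblast and -0.14 for the microglial list. Over the 8 genes the median was 0.21. Some lists differed by treatment: the dividing median was 0.55 in saline and -0.006 under amphetamine, and the meningeal fibroblast median -0.29 and 0.30. The difference between lines in the amphetamine response was negative for 10 of 10 dividing and positive for 10 of 10 meningeal fibroblast genes. In that comparison 0 of 10 were called in each list, against 0.0% of all genes. Of 11 striatal projection neuron genes 10 were negative (median -0.13), and of 10 interneuron genes 5 were negative (median -0.06). None of either list passed in edgeR (0 of 11 and 0 of 10), and 2 and 4 had an unadjusted p under 0.05, against 25.6% of all genes. The called genes depended on the processing to different degrees. Of 30 alternative settings Rgs5 passed in 30, C1qc in 29, and Aldh1l1, Fgfr3, Trem2, Birc5 and Mcm5 in 28. Ccdc153 passed in 27, Gja1 in 22, Foxj1 in 20, Abcc9 and the Aif1 locus in 18, and Tagln in 9. Ccdc153, Foxj1, Gja1, Abcc9 and Tagln did not pass with the myelin covariate, with the cortical and thalamic covariates or without the 4 libraries. Aldh1l1, Fgfr3, C1qc, Trem2, Birc5, Mcm5 and the Aif1 locus also did not pass with the cortical and thalamic covariates (edgeR adjusted p = 0.0588 to 0.136). Of these, Aldh1l1, Trem2, Birc5, Mcm5 and the Aif1 locus failed without the 4 libraries too, and Fgfr3 with the myelin covariate (0.0728). Rgs5 passed under each of these settings. The part of these cell types in the values of the 8 genes was not tested, beyond the covariates given above.

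Amphetamine did not change any of the 8 genes detectably 2 h after injection. In the control line the differences ran from -0.18 for Sox10 (SE 0.16) to 0.10 for Tnr (SE 0.09) on the log2 scale, and 0 of 8 passed in edgeR, against 0.0% of all genes. In the overactive line the lowest was Cacng4, at 134.8 ± 23.9 CPM after saline and 117.4 ± 8.25 CPM after amphetamine (SD, n = 5 each; log2 -0.20, SE 0.10, edgeR adjusted p = 0.625), again with 0 of 8 past the test and 0.0% of all genes. Over both lines and for the difference between lines in the response the count was also 0 of 8, against 0.0% of all genes in each. In none of these 4 comparisons had a member an unadjusted p under 0.05, which 5.56% of all genes had in the control line, 8.03% in the overactive line, 11.0% over both lines and 2.96% for the difference. DESeq2 and limma-voom each called 0 of 8 members in all 4. In the overactive line all 12 cortical excitatory markers were positive after amphetamine (median log2 1.26, 9 of 12 at an unadjusted p under 0.05, 0 of 12 called; summed mean 564 CPM after saline and 1072 CPM after amphetamine). With cortical and thalamic marker levels as covariates 0 of 8 members passed there, and 5 changed sign to positive: Cspg4 (0.157), Olig1 (0.114), Olig2 (0.172), Cacng4 (0.0252) and Sox10 (0.14). For Olig1 the 95% interval of the amphetamine effect over both lines was 0.89 to 1.10-fold, for Pdgfra 0.93 to 1.11-fold, and for Sox10, the least precise, 0.76 to 1.05-fold.

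Within groups, mice differed together in some of these genes. Deviations of log2 CPM from the group means were correlated over 20 libraries for all 28 pairs, with permutations within groups and adjustment over the pairs. Cspg4 and Olig2 varied most closely (Pearson r = 0.86, permutation p = 7e-05, adjusted p = 0.00196; Spearman rho = 0.85, permutation p = 7e-05, adjusted p = 0.00196), and r was 0.80 without the 2 libraries farthest from the median. Pdgfra and Olig1 followed (r = 0.72, permutation p = 0.00044, adjusted p = 0.00616; rho = 0.80, permutation p = 0.00014, adjusted p = 0.00196; 0.66 without 2 libraries). A further 3 pairs passed by Pearson but not by Spearman correlation. Olig1 with Olig2 had r = 0.69 (permutation p = 0.00262, adjusted p = 0.0244) and rho = 0.61 (permutation p = 0.00945, adjusted p = 0.0882), with r = 0.51 without 2 libraries. Pdgfra with Cspg4 had r = 0.63 (permutation p = 0.00662, adjusted p = 0.0463) and rho = 0.55 (permutation p = 0.0234, adjusted p = 0.109), with r = 0.48 without 2 libraries. Pdgfra with Olig2 had r = 0.61 (permutation p = 0.00868, adjusted p = 0.0486) and rho = 0.52 (permutation p = 0.034, adjusted p = 0.124), with r = 0.43 without 2 libraries, and its adjusted p is so near the threshold that another draw of permutations can move it across. The other 23 pairs did not pass, and Cacng4 had r between -0.33 and 0.30 with the other 7.

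**Figure D4:**
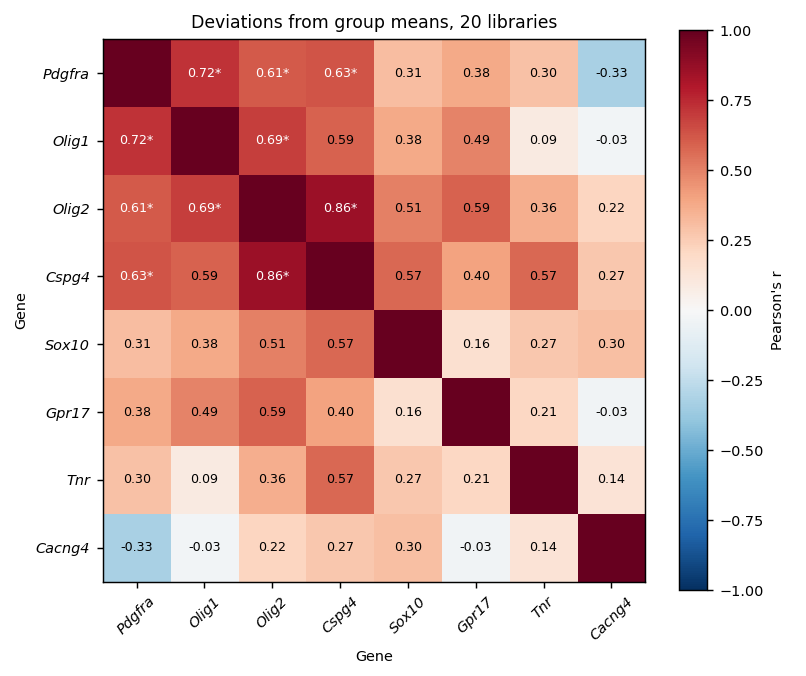
Pearson's r between the deviations of log2 CPM from group means over 20 libraries for each pair of the 8 genes (both axes), with colour from -1 to 1. Asterisks mark the 5 pairs with an adjusted permutation p under 0.05. The highest value is 0.86 for Cspg4 with Olig2, and Cacng4 ranges from -0.33 to 0.30.

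Against the mean level of marker lists in the same libraries, 56 relations were computed and 2 passed. Pdgfra followed the 18 other precursor genes (r = 0.85, permutation p = 7e-05, adjusted p = 0.00392; rho = 0.82, permutation p = 0.00011, adjusted p = 0.00448), and r was 0.72 without the 2 libraries farthest from the median. Olig1 did so too (r = 0.71, permutation p = 0.00057, adjusted p = 0.016; rho = 0.79, permutation p = 0.00016, adjusted p = 0.00448; 0.73 without 2 libraries). Pdgfra with meningeal fibroblast genes (r = 0.35, permutation p = 0.159, adjusted p = 0.456; rho = 0.42, permutation p = 0.0827, adjusted p = 0.331) and Cspg4 with mural genes (r = 0.19, permutation p = 0.487, adjusted p = 0.631; rho = 0.20, permutation p = 0.438, adjusted p = 0.599) did not pass, and r was 0.41 and 0.04 without 2 libraries.

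The genes whose deviations were most like each member were ranked among 14378 genes over the same 20 libraries, which share depth and tissue composition, and are given as a description. Gpr17 was closest to Tns3 (r = 0.73), Neu4 (0.69) and Sh3bp4 (0.68), and Sox10 to Erbb3 (0.85), Gab1 (0.81) and Casc3 (0.79). Olig2 was closest to Cspg4 (0.86), Megf10 (0.83) and 9830001H06Rik (0.80), and Cspg4 to Olig2, L1cam (0.82) and 9830001H06Rik (0.80). Among the 3 genes nearest to Pdgfra were Frmd4a (0.82) and Mast4 (0.81), and Olig1 was closest to Zcchc24, Wscd1 and Atat1 (each 0.83). Cacng4 was closest to Adcy5 (0.90), the main adenylyl cyclase of striatal projection neurons, with Bcr (0.89) also among its nearest 3, and Tnr to Sorcs3 (0.85), Dhx29 and Erc1 (each 0.84).

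Because the lines can carry different haplotypes, genes that start within 1 Mb of each member were also read between lines over both treatments. Around Olig1 0 of 25 tested neighbours passed in edgeR; Olig2 was at 0.27 and Il10rb at 0.25 (edgeR adjusted p = 0.0611; named after its value was seen). Near Pdgfra, 2 of 9 neighbours were lower, Rasl11b (log2 -0.61) and Fip1l1 (-0.20). Single neighbours passed as higher near Cspg4 (Snx33, 0.26, of 35), Tnr (4930523C07Rik, 0.50, of 8) and Cacng4 (Gm11714, under 1 CPM in every library, of 20). Near Gpr17, on chromosome 18, 3 of 21 passed, with Bin1 higher (0.18) and Syt4 (-0.20) and LOC100861703 (-0.28), which share a locus span, lower. Near Sox10 3 of 67 passed, all higher: Triobp (0.23), Gm16576 (0.41) and Dmc1 (0.54). Over all genes 3.71% passed as higher and 3.31% as lower. None of these passing neighbours passed with the myelin covariate, with the cortical and thalamic covariates or without the 4 libraries. Of 30 alternative settings 4930523C07Rik passed in 12 and Gm16576 in 11.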

How the data were processed

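Striatal RNA of 20 mice was sequenced with paired ends, per the labels. The authors deposited 1 table of expected counts per locus, not scaled between samples; 93.9% of values were whole within 0.01. The submitters' processing notes name mm10 and GRCm38; the aligner and counting tool are not given in the sources used here. The 10576 loci without a symbol (0.65% of counts) were left out, and expected counts were rounded. In R 4.3.3, edgeR 4.0.16 filtered genes with filterByExpr, scaled by TMM and fitted 1 quasi-likelihood model with 1 mean per group to all 20 libraries; 7 two-sided contrasts were adjusted by Benjamini-Hochberg over 17206 genes at 0.05. Each SE is the absolute log2 fold change divided by the square root of the quasi-likelihood F. It can be too small for a difference very close to 0. Fold intervals are 95% t intervals from this SE. Correlations used 100000 permutations within groups (scipy 1.17.1, numpy 2.4.6, pandas 2.3.3, Python 3.11.15; figures, matplotlib 3.10.9). Transcript lengths and positions are from GENCODE M21.

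The members, lists and tests were chosen with earlier results of these data known. Named genes are the 8 members, up to 3 passing genes per list with the smallest p, the 3 most similar genes per member and passing neighbours; any gene beyond this rule is said to be so, and 2 of the most similar genes are not reported here. The processing was varied by RLE or upper quartile scaling, other filters, DESeq2 1.42.0, limma-voom (limma 3.58.1), fitting only the groups compared, a replicate block, marker covariates, leaving out the 4 libraries highest in thalamic markers, and leaving out each library; applying them to the counts of 3 lineage lists was added after the data were seen. On simulated data for lines over both treatments with 17206 genes the model recovered 42% of genes changed 1.25-fold and 80% of those changed 1.5-fold, and 9 of its 165 calls were false. Same-numbered libraries of different groups did not deviate together (correlations -0.28 to 0.27). No libraries of a group agreed within sampling noise (lowest chi-square per gene 17.5). The labels give no batch. P-values measure the spread between mice of a group.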

Additional observations from a re-analysis of the deposited data

Results flagged for a closer look

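Of 32 sets of 5 libraries (8 genes in 4 groups), 3 held a library whose gap to its neighbours exceeded the limit for 5 values; chance gives about 5% of sets. Olig1 stood at 100.4 CPM and Sox10 at 63.7 CPM in control saline mouse 4, above the rest of that group. Cacng4 stood at 111.7 CPM in control amphetamine mouse 4, below the rest of that group. The cause was not tested.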

How the results depend on the processing

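Counts are of genes past the test between lines unless stated. Over both treatments (1208) DESeq2 gave 2095, the myelin covariate 456, the cortical and thalamic covariates 264, and leaving out the 4 libraries high in thalamic markers 323; in saline (191) these gave 764, 127, 30 and 95, with limma-voom 297; under amphetamine (78) 322, 29, 51 and 17, with a fit of only the groups compared 50. For amphetamine against saline (0) DESeq2 gave 40 in the overactive line and 181 over both lines, the myelin covariate 3 over both, and leaving out the 4 libraries 31 and 80. The replicate numbers did not pair the libraries; with the replicate number as a block the counts were 187, 51 and 1225, other precursor genes 5 of 18, and Olig1 0.33 (adjusted p = 0.0176). Of the 8 genes, 1 passed over both treatments but 0 with the myelin covariate, with the cortical and thalamic covariates or without the 4 libraries, and in saline 1 passed with DESeq2. Other precursor genes (1) were 6 with DESeq2, 2 with limma-voom, 4 with upper quartile scaling, and 0 under each of the 3 marker settings, where differentiating genes (5) were 1 and mature myelin genes (2) were 1. The cause was not tested. Without each library in turn the counts ran from 770 to 1414 over both treatments (lowest without control saline mouse 5 or overactive amphetamine mouse 2), 67 to 240 in saline, 23 to 88 under amphetamine, 0 to 4 for amphetamine over both lines, 0 to 1 and 1 to 4 for the 8 genes in saline and over both treatments, 1 to 4 for other precursor, 2 to 6 for differentiating and 2 to 4 for mature myelin genes (4 without control saline mouse 4).

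The values of the 8 genes that changed sign did not pass the test in the fit reported, and most lay near 0. For the line difference over both treatments, Pdgfra became -0.0365 with the myelin covariate, -0.0666 with the cortical and thalamic covariates and -0.0388 without the 4 libraries, and Cacng4 0.0382 without the 4 libraries. In saline Pdgfra became -0.0199, -0.0658 and -0.00652 under these settings, and Cacng4 -0.0837 and Sox10 -0.0146 with the cortical and thalamic covariates. Under amphetamine Pdgfra became -0.053, -0.0674 and -0.071, -0.0242 with limma-voom and -0.000806 in the fit of only the groups compared, and Tnr 0.0403, 0.0136 and 0.0323. For amphetamine against saline with the cortical and thalamic covariates, Olig2 became 0.0538 in the control line; Cspg4 0.157, Olig1 0.114, Olig2 0.172, Cacng4 0.0252 and Sox10 0.14 in the overactive line; and Cspg4 0.0542, Olig1 0.103, Olig2 0.113, Cacng4 0.0125 and Sox10 0.043 over both. In the overactive line Pdgfra became -0.00522 with limma-voom and -0.0282 without the 4 libraries, where Gpr17 became 0.0244. For the difference between lines in the response, the cortical and thalamic covariates gave Olig1 0.0216, Olig2 0.118 and Cacng4 0.0253, limma-voom Sox10 -0.047, the myelin covariate Sox10 -0.0222, and leaving out the 4 libraries Cspg4 -0.0871, Gpr17 0.0995 and Sox10 -0.0844. Spearman correlation of Tnr and Cacng4 was -0.11.

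Without each library in turn these ranges crossed 0: for amphetamine in the control line Pdgfra -0.0392 to 0.11, Olig1 -0.0224 to 0.101, Olig2 -0.123 to 0.0437, Gpr17 -0.129 to 0.00692 and Sox10 -0.262 to 8.88e-05; in the overactive line Pdgfra -0.0206 to 0.0421, Olig1 -0.122 to 0.0203 and Tnr -0.0339 to 0.0658; over both lines Pdgfra -0.012 to 0.0625 and Olig1 -0.053 to 0.0321. For the difference in the response they were Pdgfra -0.0945 to 0.0545, Cspg4 -0.0175 to 0.128, Olig1 -0.138 to 0.00448, Olig2 -0.126 to 0.0413, Gpr17 -0.159 to 0.0374 and Sox10 -0.155 to 0.154. Between lines they were Pdgfra -0.052 to 0.0971 and Cacng4 -0.0212 to 0.13 in saline, Pdgfra -0.0424 to 0.0362 and Tnr -0.0802 to 0.0408 under amphetamine, and Pdgfra -0.0248 to 0.0499, Tnr -0.00943 to 0.0561 and Cacng4 -0.0694 to 0.00683 over both treatments.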
